A study of Mus musculus with 6 samples.

Results

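The interferon receptors and the interferon regulatory factors (IRFs) that act around them were examined in dendritic cells taken from mouse tumours. They comprised 9 genes: the type I receptor chains Ifnar1 and Ifnar2, the type II receptor chains Ifngr1 and Ifngr2, and the transcription factors Irf1, Irf2, Irf5, Irf7 and Irf9. They were taken by symbol, through the Ensembl identifier, from a table of 26519 genes. All 9 were found, and all 9 were among the 12580 genes with enough reads to be tested. The tumours were MC38, a mouse colon carcinoma line, inoculated into MAVS knockout (KO) hosts or wild-type (WT) hosts, and dendritic cells were isolated on day 10 after inoculation. Bulk RNA sequencing gave 3 libraries from KO hosts and 3 from WT hosts. Both groups carried the same tumour line and no further treatment is named. MAVS is the mitochondrial adaptor through which sensors of RNA in the cytosol, such as RIG-I, trigger interferon production, and the study asked how its loss in the host alters antitumour immunity. The sources used here do not give the strain, age or sex of the hosts, the knockout allele or the gate used to isolate the cells. Whether each library came from a separate animal is not stated either, and the p-values therefore reflect the spread among these libraries, which may be technical.

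As background, type I interferons (interferon-alpha and interferon-beta) bind a receptor made of IFNAR1, which carries the kinase TYK2, and IFNAR2, which carries JAK1 and docks the STAT proteins. STAT proteins then join IRF9 to form ISGF3, the complex that switches on antiviral genes. Interferon-gamma, the type II interferon, binds IFNGR1, the ligand-binding chain that recruits JAK1, paired with IFNGR2, which carries JAK2. Its signal reaches GAS elements (gamma-activated sites), among others at the gene of IRF1, a transcriptional activator. IRF2 binds the same DNA element as IRF1 and is best known as its antagonist. IRF5 acts below Toll-like receptors in myeloid cells and drives inflammatory cytokines. IRF7 amplifies type I interferon production and is itself induced by ISGF3, and MAVS signalling activates IRF3 and IRF7.

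The 250 bases before the RefSeq start sites of Irf1 and Irf2 are shown because these genes had the highest fitted log2 fold changes of the 9 and because both hold letters that match elements of the interferon-gamma route or of the IRFs. Both are written 5′ to 3′ on the plus strand of GRCm38.p6. Irf1 lies at chr11:53769764-53770013 and Irf2 at chr8:46739495-46739744. Capitals mark matches to GAS (TTCNNNGAA) or to the IRF element (GAAA, any 2 bases, GAAA).
Irf1: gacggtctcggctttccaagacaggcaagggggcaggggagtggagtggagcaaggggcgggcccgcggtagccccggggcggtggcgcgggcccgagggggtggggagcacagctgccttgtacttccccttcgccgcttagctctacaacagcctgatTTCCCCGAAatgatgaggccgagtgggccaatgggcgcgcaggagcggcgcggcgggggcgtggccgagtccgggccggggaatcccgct
Irf2: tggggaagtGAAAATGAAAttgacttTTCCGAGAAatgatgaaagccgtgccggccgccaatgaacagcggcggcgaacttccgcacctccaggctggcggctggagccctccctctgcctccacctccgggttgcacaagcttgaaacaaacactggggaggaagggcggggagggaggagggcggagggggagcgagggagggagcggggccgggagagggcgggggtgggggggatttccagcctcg
With the start base counted as 0, the GAS match of Irf1 lay at -90 to -82. In Irf2 the IRF element match lay at -241 to -232 and a GAS match at -224 to -216. Both strands were searched in windows of 300 bases, 250 before and 50 from the start on, and the Irf2 matches do not overlap each other. RefSeq gave 11 windows for the 9 genes, of which 4 held a match. The others were in Ifnar1 (GAS at -5 to 3) and Ifnar2 (GAS at -214 to -206). The windows of Ifngr1, Ifngr2, Irf5, Irf7 and Irf9 and a second Irf1 window held neither set of letters. Among 32851 windows of 27025 mouse genes, 8.30% held a GAS match and 3.44% an IRF element match. A match of letters is a description of the sequence and not a measured binding site.

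Library totals were 14466640 to 18862534 counts in KO hosts and 17357031 to 20851733 counts in WT hosts. The 9 genes drew 733 to 13102 counts in a library. Mavs checked the labels: it stood at 8.99, 12.8 and 9.45 CPM (the gene's share of the library's scaled total count) in KO hosts, against 33.9, 39.7 and 39.7 CPM in WT hosts (log2 fold change -1.86, SE 0.18, adjusted p = 0.0017). The dendritic identity was checked on 14 markers. Cd74, the invariant chain, was abundant at 21439 CPM in KO and 18165 CPM in WT libraries, and so was the macrophage gene Lyz2, at 22105 ± 4494 and 21636 ± 2363 CPM in KO and WT libraries (SD, n = 3 each). Of the 14 dendritic markers 1 rose, Ccr7, and 4 fell, where 1.76% of all tested genes rose and 1.05% fell. Those that fell were Cd209a (log2 fold change -1.86), Xcr1 (-2.18), Flt3 (-2.01) and Zbtb46 (-1.20). These 4 averaged 22.2, 7.79, 12.4 and 8.75 CPM in KO and 80.1, 35.1, 49.9 and 20.1 CPM in WT libraries. Clec9a, another dendritic marker, averaged 7.15 CPM in KO and 7.49 CPM in WT libraries (-0.07). The macrophage marker C1qb averaged 2695 CPM in KO and 2151 CPM in WT libraries. Flt3 lost its call without KO replicate 1. The dendritic list summed to 40280 to 50730 CPM in KO and 36457 to 44074 CPM in WT libraries. Without Cd74, H2-Ab1 and H2-Aa, which macrophages also express, it summed to 887 to 1053 CPM in KO and 1013 to 1240 CPM in WT libraries. Most of that remainder was Cd83, averaging 525 CPM in KO and 557 CPM in WT libraries, and Itgax, averaging 293 and 246 CPM. These genes outweigh the markers that fell, so the sum does not follow those markers. Of 14 macrophage markers 0 passed with edgeR, 5 with DESeq2 and 7 with no filter on low counts. At an unadjusted p below 0.05 there were 10 of the 14, against 16.0% of all tested genes. In every KO library 9 were higher and 1, Apoe (-0.84), lower than in all WT libraries, where 21.8% of tested genes had groups that did not overlap. The median log2 fold change of the 14 macrophage markers was 0.32. Their summed level was 28777 to 36235 CPM in KO and 26903 to 32106 CPM in WT libraries, and without Lyz2 it was 8949 to 9561 CPM in KO and 7446 to 8523 CPM in WT libraries. Of 8 monocyte markers 1 rose, Chil3 (2.46), a call that robust dispersion and 5 of the 6 fits that left out a library lost. The monocyte sum was 8583 to 17134 CPM in KO and 5705 to 6454 CPM in WT libraries, and without Chil3 it was 4650 to 5346 CPM in KO and 4036 to 5843 CPM in WT libraries. The monocyte list had 4 positive and 4 negative log2 fold changes, with a median of -0.05. The sums without named genes were chosen after the values were seen. Of 5 tested neutrophil markers 1 rose, Mmp8 (1.10), while Ly6g was at 0 in all but 1 WT library, and of 4 tested B cell markers 1 fell, Ighm (-1.93), while Pax5 was at 0 throughout. The lists of plasmacytoid dendritic cells (7 genes), T cells (10), natural killer cells (7), fibroblasts (4), tumour epithelium (2) and endothelium (2) had 0 genes past the threshold. In bulk RNA, fewer cells of a type and less RNA per cell cannot be told apart, and the part that cell mixture plays in the values below was not tested.

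Per unit of transcript length, the genes ranged over more than an order of magnitude, with the interferon-gamma receptor chain Ifngr1 and the myeloid factor Irf5 on top. Levels were put on the TPM scale, from the counts and the exon length of each gene. In KO libraries Ifngr1 averaged 426 ± 38.5 TPM and in WT libraries 615 ± 114 TPM (SD, n = 3 each). Irf5 averaged 425 ± 31.7 TPM in KO and 545 ± 64.4 TPM in WT libraries. These 2 could not be put in order in either group, since their ranges overlapped, and both stood clear of all the rest. Irf1 followed at 185 ± 14.9 TPM in KO and 152 ± 33.9 TPM in WT libraries. Ifngr2 was next at 139 ± 3.48 TPM in KO and 134 ± 19.2 TPM in WT libraries. Irf1 stood above Ifngr2 in all KO libraries, while in WT hosts their ranges overlapped. A middle group of Ifnar1, Irf7 and Ifnar2 had neighbouring ranges that overlapped in both genotypes, with means of 79.7, 78.6 and 73.5 TPM in KO and 92.6, 91.4 and 73.0 TPM in WT libraries. The lowest were Irf2, at 29.5 ± 2.79 TPM in KO and 20.9 ± 6.28 TPM in WT libraries, and Irf9, at 29.0 ± 4.54 TPM in KO and 33.0 ± 3.50 TPM in WT libraries. These 2 overlapped in KO hosts, whereas in WT hosts the lowest Irf9 value (30.9 TPM) stood above the highest Irf2 value (25.3 TPM). The interferon-gamma receptor chains were thus more abundant than the type I chains on this scale. TPM was not scaled for composition, so it orders genes within a group and is not used to compare groups. With the length of the longest transcript instead, Irf2 averaged 42.0 TPM in KO and 29.6 TPM in WT libraries, and in WT hosts Ifnar1 (107 TPM) and Ifngr2 (103 TPM) changed places. On that length the lowest Irf2 value in KO hosts (38.9 TPM) stood above the highest Irf9 value (36.1 TPM), while in WT hosts these 2 overlapped. Irf1 then stood clear of Ifngr2 in WT hosts as well. The order of such neighbours thus depended on the length used.

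**Figure D1:**
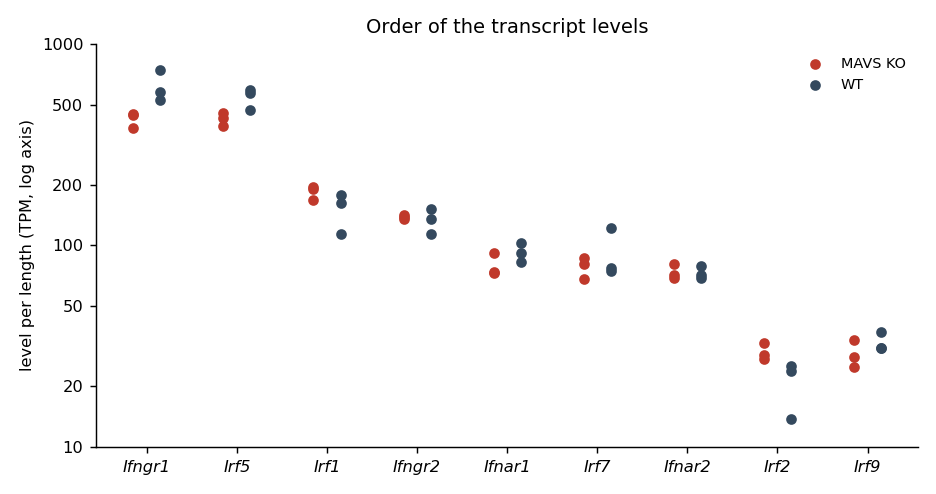
Level per transcript length of the 9 genes in TPM on a log axis, one point per library, with KO libraries drawn left of WT libraries. Ifngr1 and Irf5 lie on top in both groups, at means of 426 and 425 TPM in KO and 615 and 545 TPM in WT libraries, and Irf2 and Irf9 lie lowest.

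Between genotypes, none of the 9 genes passed the threshold. With edgeR's quasi-likelihood test and Benjamini-Hochberg adjustment over all 12580 tested genes, 0 of 9 had an adjusted p below 0.05, where 354 genes, or 2.81% of those tested, did. The smallest adjusted p among the 9 was 0.0953, for Irf2. At an unadjusted p below 0.05 there were 3, Ifngr1, Irf1 and Irf2, against a background of 16.0% of tested genes. The median log2 fold change of the 9 was 0.01, beside -0.0022 over all tested genes, with 5 positive and 4 negative. After TMM scaling, the CPM ranges of the groups did not overlap for 5 of the 9, where 21.8% of tested genes had such a separation. Ifnar2, Ifngr2, Irf1 and Irf2 were higher and Ifngr1 lower in every KO library. The TMM factors were 0.939 to 0.945 in KO and 1.04 to 1.08 in WT libraries. With counts divided by library totals alone, the groups of Ifnar2, Ifngr2 and Irf1 overlapped, while those of Irf2 and Ifngr1 did not. The DESeq2 Wald test called 1 gene, Irf2, and limma-voom 0. The 95% intervals, before any adjustment, reached 0.23 to 0.43 log2 units to either side, and the adjusted test can miss larger differences than that.

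**Figure D2:**
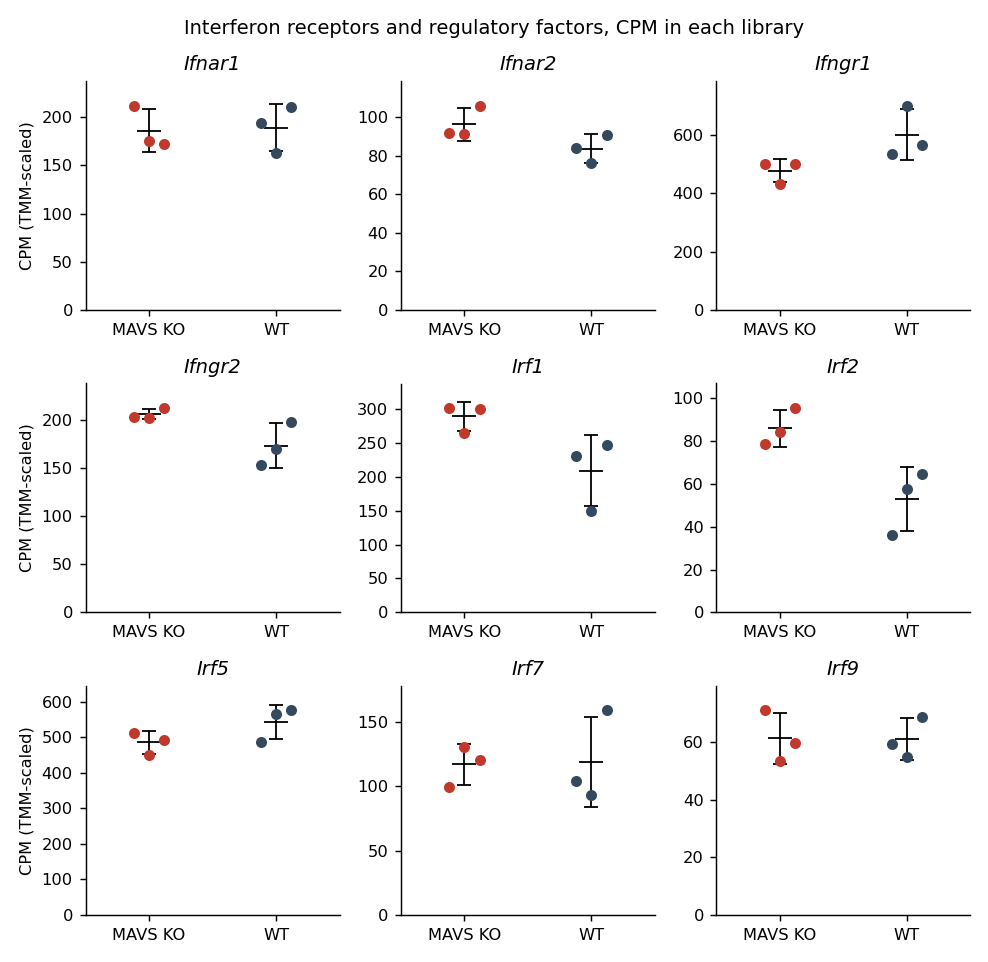
TMM-scaled CPM of each of the 9 genes by library, KO libraries left of WT libraries, with the group mean and SD (n = 3 each). On this scale groups do not overlap for Ifnar2, Ifngr1, Ifngr2, Irf1 and Irf2, and overlap for Ifnar1, Irf5, Irf7 and Irf9.

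The type II receptor chains pointed in opposite directions, although neither passed. Ifngr1 (ENSMUSG00000020009, chromosome 10, 19591949 to 19610229) had 498, 431 and 501 CPM in KO libraries, against 534, 699.5 and 565 CPM in WT libraries. Every KO value lay under every WT value, and WT replicate 2 was the highest. The means were 477 ± 39.7 CPM in KO and 599.6 ± 87.9 CPM in WT hosts (SD, n = 3 each). The log2 fold change was -0.33 (SE 0.12, 95% interval -0.60 to -0.06, adjusted p = 0.211). It was -0.21 without WT replicate 2, and -0.50 with library size alone (edgeR, adjusted p = 0.0581). Ifngr2 (ENSMUSG00000022965, chromosome 16, 91547072 to 91565623), the chain that carries JAK2, had 203, 202 and 212 CPM in KO libraries, against 153, 169 and 198 CPM in WT libraries. The KO values lay close together and above all WT values. The log2 fold change was 0.25 (SE 0.12, 95% interval -0.01 to 0.51, adjusted p = 0.332), and 0.08 when libraries were scaled by their size alone.

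The type I receptor chains did not separate beyond their error. Ifnar1 (ENSMUSG00000022967, chromosome 16, 91485238 to 91507441) had 212, 175 and 172 CPM in KO libraries, against 194, 163 and 211 CPM in WT libraries, and the groups overlapped throughout. Its log2 fold change was -0.02 (SE 0.13, 95% interval -0.31 to 0.26, adjusted p = 0.955). Ifnar2 (ENSMUSG00000022971, chromosome 16, 91372783 to 91405589) had 91.7, 91.1 and 106 CPM in KO libraries, against 84.1, 76.1 and 90.7 CPM in WT libraries. The groups just missed each other, the lowest KO value being 91.1 and the highest WT value 90.7 CPM. The log2 fold change was 0.20 (SE 0.12, 95% interval -0.06 to 0.47, adjusted p = 0.469), and 0.03 with library size alone.

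Of the receptor genes, 3 sit together on chromosome 16. In the order Ifnar2, Il10rb, Ifnar1 and Ifngr2 the cluster spans 192841 bases on the plus strand, with gaps of 574, 59403 and 39630 bases. Il10rb, the chain shared by the receptors of interleukin-10 and interferon-lambda, had 117, 118 and 117 CPM in KO libraries, against 96.2, 93.9 and 103 CPM in WT libraries (log2 fold change 0.27, SE 0.10, adjusted p = 0.227). After TMM scaling, Ifnar2, Il10rb and Ifngr2 in the cluster thus had groups that did not overlap and log2 fold changes of 0.20 to 0.27. Ifnar1, which lies between Il10rb and Ifngr2, had -0.02. With library size alone, Ifnar2 had 0.03, Il10rb 0.10, Ifngr2 0.08 and Ifnar1 -0.19. No difference between these genes was tested. None of the 9 genes lies on chromosome 2, which holds Mavs.

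Among the transcription factors, Irf1 and its antagonist Irf2 had the largest fitted differences. Irf2 (ENSMUSG00000031627, chromosome 8, 46739732 to 46847458) had 78.4, 84.0 and 95.4 CPM in KO libraries, against 36.1, 57.8 and 64.8 CPM in WT libraries. Every KO library stood above every WT library, and WT replicate 1 was the lowest. The means were 85.9 ± 8.71 CPM in KO and 52.9 ± 14.9 CPM in WT hosts (SD, n = 3 each), a 1.62-fold ratio and a log2 fold change of 0.70 (SE 0.19, 95% interval 0.27 to 1.13, adjusted p = 0.0953). This gene was on the edge of the threshold: DESeq2 gave an adjusted p of 0.0101, the alternatives ranged from 0.000185 to 0.316, and leaving out WT replicate 1 lowered the log2 fold change to 0.48. Irf1 (ENSMUSG00000018899, chromosome 11, 53770014 to 53778374) had 301, 264 and 300.1 CPM in KO libraries, against 231, 149.7 and 246 CPM in WT libraries. On this TMM scale the groups did not overlap, and WT replicate 2 was the lowest by a wide margin. The means were 289 ± 21.1 CPM in KO and 209 ± 51.9 CPM in WT hosts (SD, n = 3 each), and the log2 fold change was 0.47 (SE 0.17, 95% interval 0.09 to 0.84, adjusted p = 0.202). Without WT replicate 2 it was 0.27, and with library size alone 0.30.

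Irf5 (ENSMUSG00000029771, chromosome 6, 29526625 to 29541871), the factor below Toll-like receptors, had 513, 452 and 492 CPM in KO libraries, against 488, 566 and 576 CPM in WT libraries. WT replicate 1 fell within the KO range. The log2 fold change was -0.16 (SE 0.10, 95% interval -0.39 to 0.07, adjusted p = 0.52), and -0.33 with library size alone. Irf7 (ENSMUSG00000025498, chromosome 7, 141262706 to 141266481, minus strand), which MAVS signalling activates as a protein and ISGF3 induces as a transcript, had 99.6, 130.3 and 120.5 CPM in KO libraries, against 104, 93.3 and 159 CPM in WT libraries. The WT libraries held both the lowest and the highest value. The means were 117 ± 15.7 CPM in KO and 119 ± 35.3 CPM in WT hosts (SD, n = 3 each), and the log2 fold change was -0.03 (SE 0.19, 95% interval -0.45 to 0.40, adjusted p = 0.971). Without WT replicate 3 the log2 fold change was 0.24. Irf9 (ENSMUSG00000002325, chromosome 14, 55603571 to 55610030), the DNA-binding part of ISGF3, had 71.0, 53.4 and 59.8 CPM in KO libraries, against 59.4, 54.9 and 68.9 CPM in WT libraries. The values interleaved, with a log2 fold change of 0.01 (SE 0.14, 95% interval -0.31 to 0.33, adjusted p = 0.989) that was -0.16 with library size alone.

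**Figure D3:**
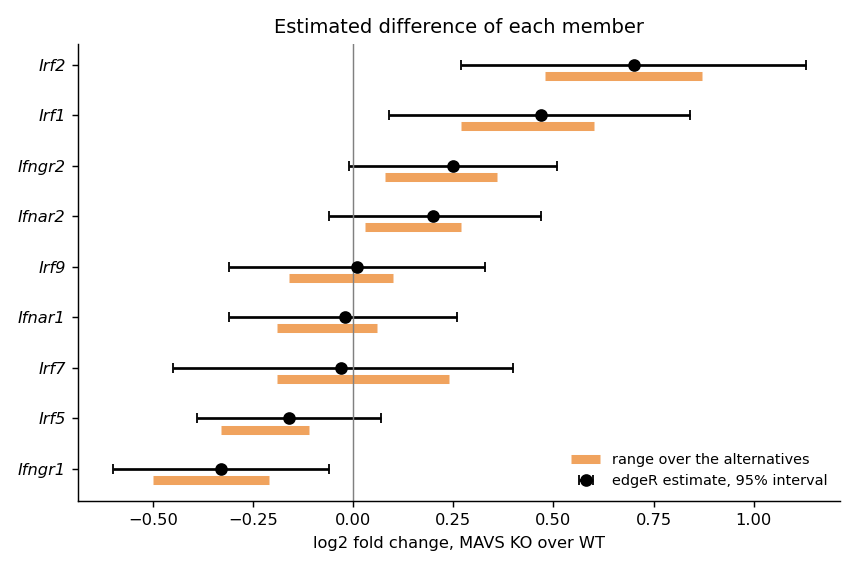
Log2 fold change, KO over WT, of the 9 genes from edgeR's quasi-likelihood fit, with 95% intervals as horizontal bars and the range over the 14 alternative settings as thicker bars. The intervals of Irf2 (0.27 to 1.13), Irf1 (0.09 to 0.84) and Ifngr1 (-0.60 to -0.06) leave out 0 before adjustment, and no gene passed after adjustment over all tested genes.

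Ratios of partner genes within a library do not depend on scaling between libraries. Of 6 ratios tested, that of Ifngr2 to Ifngr1 was the 1 whose groups did not overlap. This separation follows from the TMM-scaled values above, with Ifngr2 higher and Ifngr1 lower in every KO library, and is not a separate result. Its log2 count ratio was -1.29, -1.09 and -1.24 in KO libraries, against -1.80, -2.05 and -1.51 in WT libraries, so Ifngr2 was higher relative to Ifngr1 in every KO library. The difference was 0.58 (exact two-sided permutation test, p = 0.1, the smallest that 3 against 3 can give, adjusted p = 0.6 over the 6 ratios), and 0.45 to 0.72 when each library was left out. The ratio of Ifnar2 to Ifnar1 averaged -0.95 ± 0.25 in KO and -1.17 ± 0.06 in WT libraries (SD, n = 3 each, exact permutation p = 0.2, adjusted p = 0.6), and the groups overlapped. Ifngr1 to Ifnar1 averaged 1.36 ± 0.16 in KO and 1.66 ± 0.38 in WT libraries (exact permutation p = 0.3, adjusted p = 0.6).

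The balance of the activator Irf1 and its antagonist Irf2 was 1.94, 1.65 and 1.65 in KO libraries, against 2.68, 1.37 and 1.93 in WT libraries. The WT libraries spread on both sides of the KO libraries. The difference was -0.24 (exact permutation p = 0.8, adjusted p = 0.96), and it turned to 0.10 without WT replicate 1. Irf7 to Irf9 averaged 0.93 ± 0.40 in KO and 0.93 ± 0.24 in WT libraries (exact permutation p = 1.0, adjusted p = 1.0). Irf5 to Irf7 averaged 2.06 ± 0.29 in KO and 2.23 ± 0.37 in WT libraries (exact permutation p = 0.6, adjusted p = 0.9), a difference of -0.17 that was 0.02 without WT replicate 2. With 3 libraries a group no ratio could pass 0.05, so these p-values do not show that the ratios were alike.

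**Figure D4:**
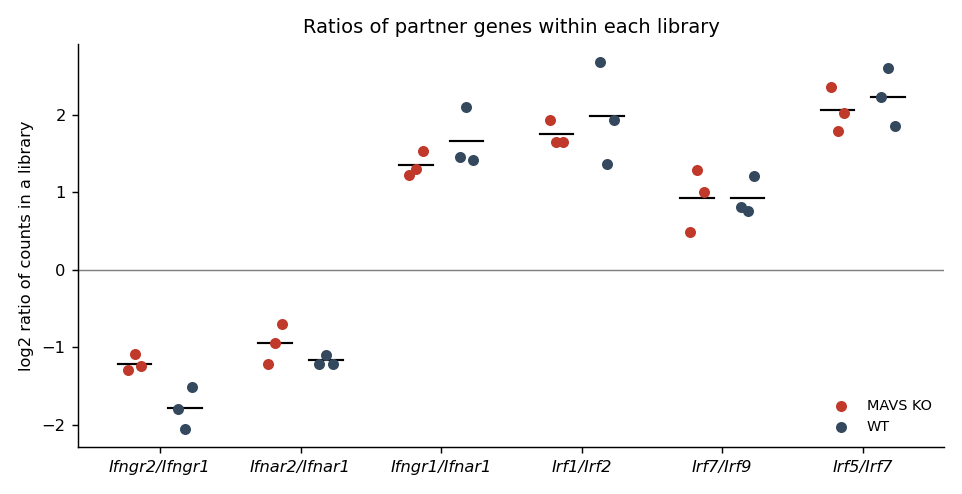
Log2 count ratio of 6 pairs of partner genes in each library, KO libraries left of WT libraries, with horizontal bars for group means. The groups separate for Ifngr2 over Ifngr1, at means of -1.21 in KO and -1.79 in WT libraries, and overlap for the other pairs.

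The ligands were scarce in these cells. Interferon-gamma (Ifng), made mainly by T and natural killer cells, had 18, 17 and 39 counts in KO libraries, against 51, 0 and 4 counts in WT libraries, and the groups overlapped (log2 fold change 0.88, SE 1.11, adjusted p = 0.785). The summed markers of T cells were 17.2 to 31.2 CPM in KO and 16.8 to 25.2 CPM in WT libraries. Those of natural killer cells were 81.6 to 114 CPM in KO and 75.0 to 121 CPM in WT libraries. Most of the natural killer cell sum was a single gene, Klrk1, averaging 72.9 CPM in KO and 86.2 CPM in WT libraries. Gzma, a killer cell granzyme, had 142, 162 and 97 counts in KO libraries, against 181, 3 and 148 counts in WT libraries. A link between Gzma and Ifng was not tested. Interferon-beta (Ifnb1) had 7, 0 and 0 counts in KO libraries, against 7, 4 and 5 counts in WT libraries. Ifnk had 2, 1 and 3 counts in KO libraries, against 9, 0 and 4 counts in WT libraries. Ifna4 had 5 counts in 1 KO library and Ifna13 had 1, with 0 in the rest. All but Ifng were too low to be tested.

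The carriers and brakes of the receptor signal did not pass either. Of 11 JAK and STAT genes 0 passed, with a median log2 fold change of 0.01. The count was 1 with DESeq2, with the replicate block, with no filter on low counts and without WT replicate 3. Of 16 measured negative regulators 0 passed, with a median of 0.06. Socs1, the suppressor that blocks the receptor kinases, had 67.0, 64.3 and 68.5 CPM in KO libraries, against 30.7, 18.2 and 45.1 CPM in WT libraries (log2 fold change 1.09, SE 0.26, adjusted p = 0.0541). All KO values were above all WT values, and DESeq2 and limma-voom both called it. Of 5 other IRFs and receptor chains 0 passed (median 0.02, 3 positive and 2 negative), and 1 was called without WT replicate 3. Irf3, which MAVS signalling activates, had 29.4, 32.7 and 33.2 CPM in KO libraries, against 32.9, 28.7 and 32.0 CPM in WT libraries. Its log2 fold change was 0.02 (SE 0.14). Irf4 averaged 10.2 CPM in KO and 16.6 CPM in WT libraries, with overlapping groups (log2 fold change -0.70, SE 0.27, edgeR adjusted p = 0.236). Of 9 co-factors and relatives of Irf2 0 passed (median 0.18), the smallest p being that of the acetyltransferase Crebbp (log2 fold change 0.35, adjusted p = 0.344).

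Genes downstream were read in 2 lists of 40 genes. Of 39 tested targets of IRF1 and GAS elements 12 rose, 0 fell and 27 did not pass, where 1.76% of all tested genes rose and 1.05% fell. Their median log2 fold change was 0.63, with 37 positive and 2 negative. Il27, the p28 subunit of interleukin-27, had 15.4, 14.0 and 14.7 CPM in KO libraries, against 3.89, 2.51 and 4.84 CPM in WT libraries (log2 fold change 1.97, SE 0.27, adjusted p = 0.0107). It was the 1 named target that passed in each of the 6 fits without a library. Cd274, the ligand PD-L1, had 779, 734 and 748 CPM in KO libraries, against 309, 251 and 458 CPM in WT libraries (log2 fold change 1.15, SE 0.18, adjusted p = 0.0164). Gbp2, a guanylate-binding protein, had 649, 756 and 738 CPM in KO libraries, against 327, 196 and 401 CPM in WT libraries (log2 fold change 1.21, SE 0.21, adjusted p = 0.0203). In all 3 of these genes the lowest WT library was replicate 2, as it was for Irf1. The same held for Ifnar1, Ifnar2, Irf7 and Irf9, but not for Ifngr1, Ifngr2, Irf2 and Irf5, so it was not particular to Irf1 and these targets. Nos2, the inducible nitric oxide synthase, had 831, 968 and 710.1 CPM in KO libraries, against 86.7, 81.5 and 296 CPM in WT libraries (log2 fold change 2.43, SE 0.43, adjusted p = 0.0216), and lost its call with robust dispersion. The count of 12 depended on single libraries: it was 2, 2 and 1 without KO replicates 1, 2 and 3, and 4, 7 and 12 without WT replicates 1, 2 and 3. It was 20 with DESeq2 and 26 with no filter. This list was assembled with earlier results of these libraries known, so its direction is not independent evidence, and it holds Socs1 as well. The macrophage markers without Lyz2 also summed higher in every KO library, as given above, and their part in these values was not tested.

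Targets of ISGF3 and IRF7 mostly did not pass. Of 40 tested, 2 rose, 0 fell and 38 did not pass, where 1.76% of all tested genes rose and 1.05% fell. Their median log2 fold change was 0.18, with 27 positive and 13 negative. Rsad2, the antiviral enzyme viperin, had 69.6, 73.5 and 44.6 CPM in KO libraries, against 27.1, 22.1 and 33.2 CPM in WT libraries (log2 fold change 1.19, SE 0.21, adjusted p = 0.0219). Ifit2, an interferon-induced antiviral protein, had 52.4, 70.5 and 52.8 CPM in KO libraries, against 39.5, 23.7 and 32.6 CPM in WT libraries (log2 fold change 0.87, SE 0.20, adjusted p = 0.0443). The count was 0 without KO replicate 1, KO replicate 2 or WT replicate 2, 1 without KO replicate 3 and 1 with library size alone. It was 5 with DESeq2 and 7 with no filter. Whether the 2 target lists differ was not tested. Of 30 tested activators upstream of IRF5 and IRF7, Mavs fell and Tlr4 rose, and 28 did not pass (median 0.05). Tlr4, the receptor of lipopolysaccharide, had 195, 196 and 182 CPM in KO libraries, against 138, 142 and 135 CPM in WT libraries (log2 fold change 0.47, SE 0.10, adjusted p = 0.0364), and its call was lost whenever any library was left out.

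**Figure D5:**
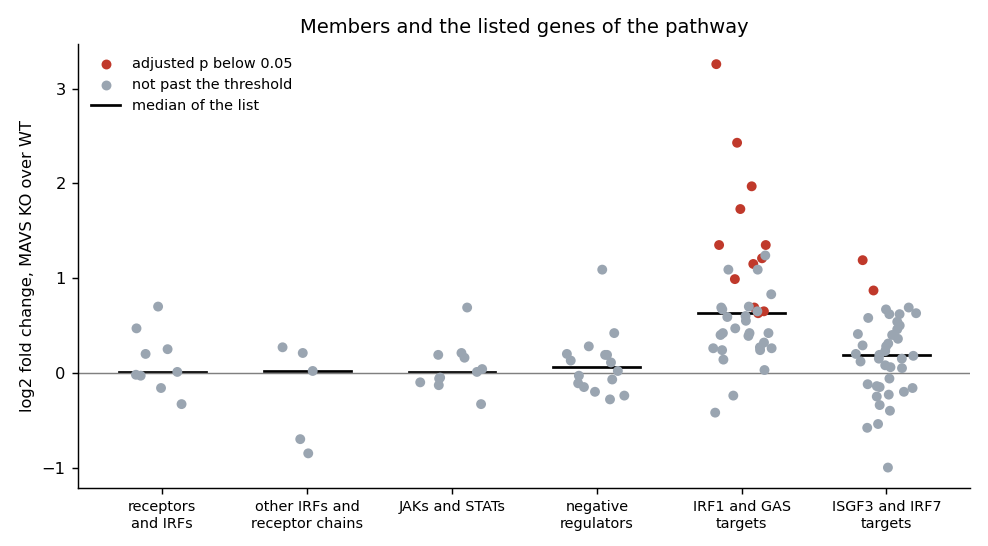
Log2 fold change, KO over WT, of the 9 receptors and IRFs and of the tested genes of 5 pathway lists, 1 point per gene, with a bar for each median and red points for genes past the threshold. Targets of IRF1 and GAS elements have a median of 0.63 with 12 higher, beside 0.18 for targets of ISGF3 and IRF7 and 0.01 for JAK and STAT genes.

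Some members share exon bases with neighbouring genes, and the part these bases play in the counts was not tested. The sources used here do not give the strand setting of the counting, which bears on neighbours on the opposite strand. Irf5 shares 411 of its 2905 exon bases (14.1%) with Tnpo3 on the opposite strand, which itself had 909 to 1333 counts in KO and 1436 to 1712 counts in WT libraries. That is well under the 6723 to 9134 counts of Irf5 in KO and 9892 to 12510 counts in WT libraries. On the same strand, Ifnar2 shares 9.5% of its exon bases with Gm21970 and Irf9 2.3% with Rnf31. On the opposite strand, Irf1 shares 3.4% with Gm17334 and Irf7 1.2% with Phrf1. Irf2 shares no exon base with its antisense neighbours.

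Among the 9 genes, profiles over the 6 libraries were closest for Ifnar1 and Irf9, at a root-mean-square distance of 0.069 log2 units after each profile was centred on its mean. Next came Ifnar2 and Ifngr2 at 0.108, then Ifngr1 and Irf5 at 0.13. Over the 8665 genes compared, Irf1 and Irf2 had few near neighbours, with 9 and 5 genes within 0.1, and Irf7 had 0, whereas Irf5 had 292. Ifnar1 and Irf9 had 108 and 113. Profiles were not scaled for spread, so a gene that varies more tends to have fewer near neighbours. Irf1, Irf2 and Irf7 had the largest SDs of log2 CPM in WT libraries among the 9 genes (0.39, 0.44 and 0.41). The genes closest to Irf2 were Zfp287 (0.057) and Pdp2 (0.079), and those closest to Irf1 were Nicn1 (0.064) and Tigd2 (0.073). Those closest to Irf7 were Chd8 (0.116) and Ifi207 (0.123), to Irf5 Opa3 (0.019) and Tcp11l2 (0.027), and to Irf9 Safb2 (0.026) and Rpl7l1 (0.032). Among the receptors they were Wdr43 (0.053) and Hjurp (0.054) for Ifngr1, Gtf2e2 (0.039) and Plec (0.045) for Ifngr2, Tmem241 (0.036) and Sephs2 (0.048) for Ifnar1, and Dnpep (0.039) and Wsb1 (0.043) for Ifnar2. Over 6 libraries such closeness is a description and says nothing of shared control.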

How the data were processed

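The authors deposited raw read counts per Ensembl mouse gene, whole numbers whose totals differ between libraries, for 6 bulk RNA-seq libraries made from Trizol-extracted RNA, per the labels' protocols. The submitters' processing notes name mm10, HISAT2, HISAT, HTSeq and DESeq2, without role or version. The sources used here do not give the annotation release.

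GENCODE M21 (GRCm38) supplied symbols and positions for 26356 identifiers, and 163 had no match. The test was edgeR's quasi-likelihood F test (edgeR 4.0.16, R 4.3.3) with TMM scaling and no covariate, after filterByExpr at a count of 10 and a total of 15, which kept 12580 genes. Adjustment followed Benjamini-Hochberg over all of them, at a threshold of 0.05. CPM is TMM-scaled. Ratios used counts with 0.5 added. No pair of libraries within a group was a duplicate (chi-square per degree of freedom 14.88 to 34.84). The procedure was tested on simulated data.

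The members, gene lists and alternatives were chosen with earlier results of these data known. Named genes are the 9, Mavs, per pathway list up to 4 genes past the threshold or else the 1 of smallest p, the most abundant and up to 3 called genes per marker list, and the 2 nearest profiles per gene. Of the genes this rule names, 1 is not reported here. Irf3, Irf4, Gzma, Ccr7, Zbtb46, Clec9a, Cd83, Itgax, C1qb, Apoe, H2-Ab1, H2-Aa, Ly6g, Pax5, the scarce interferon genes and the genes with overlapping exons were named after their values were seen. Alternative settings were scaling by DESeq2 size factors or by library size alone, dropping the filter or asking for a mean of 5 CPM or more, the Wald test of DESeq2 1.42.0, limma-voom (3.58.1), robust dispersion, a replicate block and leaving out each library. Promoter sequences are RefSeq's (GRCm38.p6).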

Additional observations from a re-analysis of the deposited data

How the results depend on the processing

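Of 354 genes called, the count was 924 with no filter on low counts, 738 with the DESeq2 Wald test and 36 to 277 when a library was left out; the cause was not tested. Library size alone gave 102 higher and 341 lower against 222 and 132 with TMM, with the median of all tested genes at -0.17. Among the 9 genes, where 0 were called, 2 were called with no filter (Irf1, adjusted p = 0.00994, and Irf2, 0.000185), 1 with DESeq2 (Irf2, 0.0101) and 1 with the replicate block (Irf2, 0.0322). Leaving out any library called 0. Same-numbered libraries did not deviate together (correlations 0.038, 0.087 and -0.043), so the numbers are not taken as pairs; the replicate block called 414 genes.

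The sign of 3 near-zero genes turned. Ifnar1 ranged from -0.13 to 0.06 when a library was left out, and Irf7 from -0.18 to 0.24, with 0.0047 under the replicate block. Irf9 was -0.16 with library size alone, -0.01 where a mean of 5 CPM was required and -0.11 to 0.10 when a library was left out. The log2 ratio difference of Irf1 to Irf2 ranged from -0.55 to 0.10 and that of Irf5 to Irf7 from -0.35 to 0.02; none of these differences passed a test. Ifnar2, Ifngr2, Irf1 and Irf2 were positive and Ifngr1 and Irf5 negative in all 14 alternatives, at sizes from 0.03 (Ifnar2) to 0.87 (Irf2). Cd274, Gbp2, Nos2, Rsad2, Ifit2 and Tlr4 each lost their call in at least 4 fits without a library. Over the alternatives the adjusted p of Irf1 ranged from 0.00994 to 0.449 and that of Irf2 from 0.000185 to 0.316. With 3 libraries a group, a gene that missed the threshold is not shown to be unchanged: Irf2 missed it at 0.70.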

Other observations

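WT libraries spread more than KO libraries for most of the 9 genes. The SD of log2 CPM was larger in WT than in KO hosts for 8 of them, Irf9 being the exception, with medians of 0.12 in KO and 0.19 in WT hosts. The same held for 62.6% of 5751 genes with a mean of at least 20 CPM, whose median SD was 0.13 in KO and 0.17 in WT hosts. The libraries at the edge differed by gene: WT replicate 1 was lowest for Irf2, WT replicate 2 lowest for Irf1 and highest for Ifngr1, and WT replicate 3 highest for Irf7. These are values from 3 libraries a group and were not tested.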
